A study of Rattus norvegicus with 18 samples.

Results

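The basolateral amygdala (BLA) of rats in enriched housing (EE) was compared with that of rats in standard single housing (SH). The comparison, EEvSH, used 12 of the 18 samples of the series, 6 EE and 6 SH rats, and all genes with a mean above 1 over the 18 BLA libraries, which were 18172 of the 19113 genes in the table. All were adult male Sprague-Dawley rats. EE rats lived as a group in a multi-level cage with rotating toys during their active dark phase, were housed singly by day, and stayed on this schedule until tissue was collected. SH rats were housed singly throughout. In the third group of the series (ER) enrichment had been taken away, and it entered here only the filter on mean level, the estimate of the spread between rats and the mean from which deviations were taken. Bilateral BLA micropunches of each rat gave 1 library, with no pooling. The EE rats shared a cage, so a difference between cages and a difference between housing conditions cannot be told apart, and the tests measure the spread between rats.

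The BLA is a cortex-like nucleus of glutamatergic projection neurons with local inhibitory interneurons, lying between the striatum, the central amygdala and the cortex, and it attaches emotional value to sensory events. Enrichment joins social contact, exercise and novelty, and is known in rodents for effects on synapses, on myelin and on glia. Oligodendrocytes wrap axons in myelin, microglia are the resident macrophages of brain tissue, and both proteins and proteases of the extracellular matrix shape synapses.

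The values are normalized read counts, that is reads of a gene divided by 1 size factor per library. Recovered reads per library ranged from 17753797 to 21931492 in EE and from 18688872 to 22177364 in SH. The 20 markers of glutamatergic amygdala neurons summed to 93559 to 133089 normalized reads in EE and 97386 to 125899 in SH, and the 21 markers of striatal and central amygdala neurons to 19345 to 22602 in EE and 17261 to 28925 in SH, so genes of the neighboring regions were measured in both groups. SH 1 and SH 3 stood apart from all other libraries. Proteins of the cytosolic ribosome took 1.23% of normalized reads in SH 1 and 1.35% in SH 3, against 0.724% to 0.976% in the other 16 libraries. When genes were put in 5 classes by genomic span, the shortest class exceeded the longest by 0.76 (log2) in SH 3 and by 0.35 in SH 1, against −0.20 to 0.09 in the other 16. Each result is therefore given with all libraries and without SH 1 and SH 3.

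**Figure D1:**
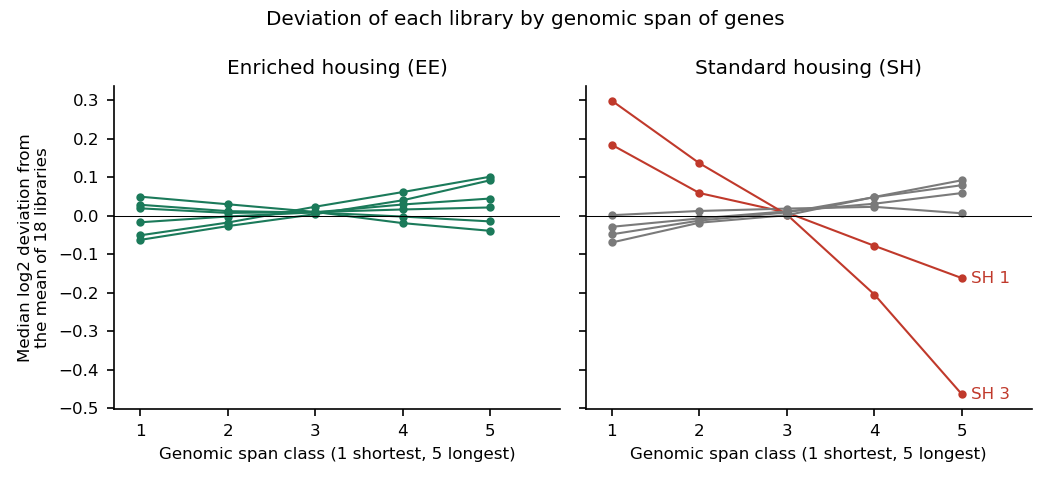
Median log2 deviation from the mean of all libraries (y axis) of genes in 5 classes of genomic span, shortest to longest (x axis), with 1 line per EE rat in the left panel and 1 per SH rat in the right panel. The shortest class exceeds the longest by −0.16 to 0.09 over the EE rats, against 0.76 in SH 3 and 0.35 in SH 1 (red lines).

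The first question was how far the transcriptome of EE rats differed from that of SH rats. With limma on log2(value + 1), 0 of 18172 genes (0%) passed an adjusted p of 0.05, and the smallest adjusted p was 0.694. An unadjusted p under 0.05 was found for 1067 genes (5.87% of those tested), 608 higher (3.35%) and 459 lower (2.53%) in EE. Without SH 1 and SH 3, limma called 0 genes (0%), with a smallest adjusted p of 0.114, and 1518 genes (8.35%) had an unadjusted p under 0.05, 697 higher (3.84%) and 821 lower (4.52%) in EE. Of these genes, 382 were in both sets with the same direction, 35.8% of the first set and 25.2% of the second, while 363 genes of the second set had a log2 fold change of the other sign when all libraries were used. edgeR and limma-voom on recovered reads called 0 genes (0%), with or without the pair. At an unadjusted p under 0.05, edgeR had 1073 genes (5.90%) with all libraries and 1494 (8.22%) without the pair, and limma-voom 1564 (8.61%) and 2055 (11.3%). DESeq2 called 1 of 18159 genes with an adjusted p (0.00551%) with all libraries, and 25 of 10066 (0.248%) without SH 1 and SH 3. Of the 25 calls, 6 were higher (0.0596%) and 19 lower (0.189%) in EE. Genes without an adjusted p in that fit, among them Cmklr1 and Exoc3l4, could not be called. The EE and SH values of 31 genes (0.171%) did not overlap, 17 higher (0.0936%) and 14 lower (0.0770%) in EE. Without the pair this held for 299 genes (1.65%), 146 higher (0.803%) and 153 lower (0.842%) in EE. A lack of overlap is easier to reach with 4 SH rats than with 6, so these counts cannot be compared directly.

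The sign of the log2 fold change varied with gene span. With all libraries the median log2 fold change of the 5 span classes went, from the shortest to the longest genes, −0.062, −0.028, 0.010, 0.046 and 0.11. Without SH 1 and SH 3 the same medians were 0.035, 0.0086, 0.0029, −0.012 and −0.026. Over all genes tested the median was 0.018 with all libraries and −0.0016 without the pair, and 53.7% and 49.6% of genes had a positive log2 fold change. Gene lists below are set against these values.

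Aurkc, an Aurora kinase of chromosome segregation, was the gene called by DESeq2 with all libraries. It had 279, 306, 306, 322, 336 and 342 normalized reads in EE 1 to 6, against 369, 436, 526, 476, 483 and 391 in SH 1 to 6. Every EE rat lay below every SH rat. The log2 fold change was −0.49 (SE 0.098) in limma, with a DESeq2 adjusted p of 0.0143 over all genes, and −0.50 (SE 0.093) without SH 1 and SH 3, with a DESeq2 adjusted p of 0.000841. In limma the gene did not pass in either fit. Of the 25 genes of the list of cell division, to which Aurkc belongs, 17 had a positive log2 fold change (median 0.15), and 15 without the pair (median 0.05). Ska3, a protein of the spindle and kinetochore outside that list, had 213, 241 and 285 normalized reads in EE (lowest, median, highest) and 257, 332 and 406 in SH (log2 fold change −0.43, SE 0.11, and −0.29, SE 0.10, without the pair). All 6 EE rats were below the SH median of Ska3, and 4 were below every SH rat.

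Other genes with the smallest p in limma were also lower in EE, although none passed adjustment. Ier5l, of the immediate early response family, had 173, 277, 265, 347, 221 and 311 normalized reads in EE 1 to 6, against 452, 326, 403, 394, 389 and 397 in SH 1 to 6. Only EE 4 reached into the SH range. The log2 fold change of Ier5l was −0.60 (SE 0.13) and −0.53 (SE 0.14) without the pair. Fgd3, an exchange factor of the GTPase Cdc42, had 405, 426 and 522 in EE (lowest, median, highest) and 482, 548 and 601 in SH, with EE 6 alone inside the SH range (−0.33, SE 0.082, and −0.32, SE 0.085). A pair of genes act in the nucleus. Ino80e, a subunit of the INO80 chromatin remodeler, had 1069, 1245 and 1394 in EE and 1285, 1556 and 1915 in SH (−0.35, SE 0.090, and −0.29, SE 0.087). Xrcc1, a scaffold of DNA single-strand break repair, had 938, 975 and 1026 in EE and 990, 1208 and 1470 in SH (−0.30, SE 0.079, and −0.24, SE 0.072). For both genes all 6 EE rats were below the SH median. Bckdk, the kinase that switches off the breakdown of branched-chain amino acids, was named after its values were seen as 1 of the 14 genes lower in EE with no overlap. It had 895, 975 and 1064 in EE and 1068, 1126 and 1283 in SH (−0.23, SE 0.066, and −0.18, SE 0.064).

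Several genes of motile cilia had lower values in EE, although none passed adjustment in limma. Motile cilia beat on the ependymal cells that line the ventricles, and their axoneme is a microtubule scaffold with dynein motors, radial spokes and regulatory complexes. Rsph9, a radial spoke protein, had 322, 428, 463, 318, 344 and 465 normalized reads in EE 1 to 6, against 475, 485, 605, 482, 570 and 478 in SH 1 to 6. The groups did not overlap (log2 fold change −0.41, SE 0.11, and −0.38, SE 0.12, without SH 1 and SH 3). Drc1, of the nexin-dynein regulatory complex, had 491, 593, 630, 590, 509 and 567 in EE 1 to 6, against 496, 816, 789, 695, 859 and 708 in SH 1 to 6. SH 1 was the only SH rat within the EE range, and the log2 fold change was −0.35 (SE 0.11), and −0.45 (SE 0.093) without the pair, where DESeq2 called the gene (adjusted p = 0.0124). The dynein chain Wdr63 was at a low level, with 0, 3.23 and 6.83 in EE (lowest, median, highest) and 8.43, 11.1 and 17.7 in SH. Ccdc173, a protein of the axonemal microtubules, had 9.10, 17.6 and 22.6 in EE and 24.0, 29.8 and 38.0 in SH. Neither gene overlapped between groups, and the log2 fold change of Ccdc173 was −0.88 (SE 0.33), and −0.97 (SE 0.38) without the pair.

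A list of axonemal genes was drawn up after these 4 genes had been seen. Of its 68 tested genes 53 had a negative log2 fold change (median −0.17), 9 at an unadjusted p under 0.05 and 0 higher, and without SH 1 and SH 3 there were 51 (median −0.19), 12 at an unadjusted p under 0.05 and 1 higher. The median log2 deviation of the list was −0.116 to 0.020 over the EE rats and 0.054 to 0.27 over the SH rats. With all libraries, and those 4 genes included, it was the only one of the 41 lists whose rats did not overlap between groups. Without SH 1 and SH 3, where fewer SH rats make this easier, it was 1 of 4 such lists. The others were chaperones, the proteasome, and histone and DNA modifying enzymes. The summed level of the axonemal list was 12467 to 13943 normalized reads in EE and 13910 to 16145 in SH. Without the 4 genes the remaining 64 had a median of −0.15 and 49 were negative (−0.16 and 47 without the pair), and the rats then ranged from −0.114 to 0.028 in EE and from 0.026 to 0.25 in SH, so the groups met at 1 end. Leaving out each rat in turn kept the median of all 68 between −0.21 and −0.13. The 13 markers of choroid plexus, ependyma and blood had 8 negative log2 fold changes (median −0.17, and −0.11 without the pair), with a summed level of 2024 to 3712 in EE and 2128 to 7280 in SH. The part of tissue from the ventricle wall in the axonemal difference was not tested. In bulk tissue, fewer cells of a type and less RNA per cell cannot be told apart, here or in any list below.

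Higher in EE, with the smallest p in limma, was Cmklr1, the receptor of the chemoattractant chemerin on macrophages and microglia. It had 112, 97.8, 107, 88.1, 112 and 60.4 normalized reads in EE 1 to 6, against 31.2, 39.1, 67.7, 15.4, 51.9 and 41.1 in SH 1 to 6. EE 6 alone fell within the SH range, below SH 3. The log2 fold change was 1.31 (SE 0.31), and 1.45 (SE 0.32) without SH 1 and SH 3, and leaving out each rat in turn gave 1.06 to 1.48. Rarres2, which encodes chemerin, had 212, 242 and 352 in EE and 233, 287 and 532 in SH (log2 fold change −0.24, SE 0.20, and −0.06, SE 0.18), and its groups overlapped widely.

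**Figure D2:**
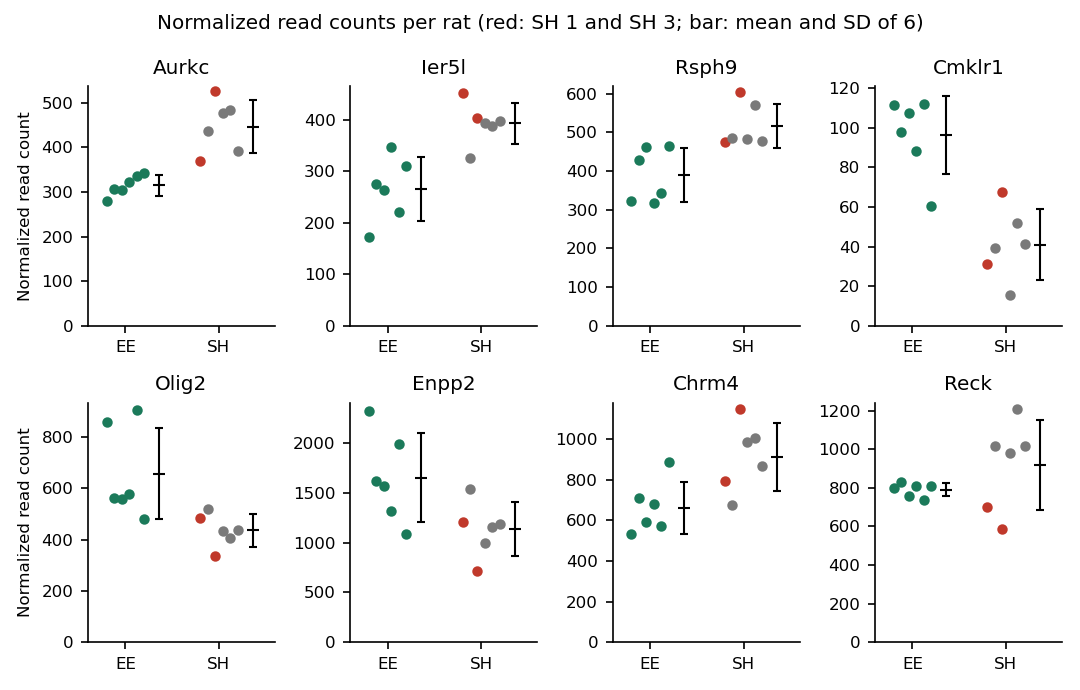
Normalized reads of 8 genes (y axis, linear, from 0) in each rat, EE at the left and SH at the right of each panel, with red points for SH 1 and SH 3 and bars for the mean and SD of 6 rats. Aurkc and Rsph9 do not overlap between groups, Cmklr1 overlaps through EE 6, and in Reck SH 1 and SH 3 lie below the EE rats and the other SH rats above them.

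Exoc3l4, related to the exocyst subunits of vesicle tethering, had 27.6, 28.4, 28.1, 32.7, 30.6 and 37.5 normalized reads in EE 1 to 6, against 17.7, 20.6, 6.45, 13, 5.89 and 7.38 in SH 1 to 6. Its groups did not overlap (log2 fold change 1.45, SE 0.37, and 1.46, SE 0.40, without the pair). Osbpl3, a lipid transfer protein, had 249, 279 and 336 in EE (lowest, median, highest) and 143, 193 and 252 in SH (0.52, SE 0.13, and 0.38, SE 0.12). Prkch, a protein kinase C, had 89.3, 119 and 133 in EE and 49.4, 77.0 and 96.6 in SH (0.68, SE 0.18, and 0.48, SE 0.17). For both, all EE rats exceeded the SH median. Among other genes without overlap, Scel, a protein of the epithelial cornified envelope, had 20.5, 26.0 and 39.9 in EE and 10.7, 14.5 and 17.9 in SH. Trim55, a ubiquitin ligase known from muscle sarcomeres, had 27.8, 40.7 and 71.2 in EE and 18.9, 25.5 and 27.1 in SH. Cdyl, a chromodomain corepressor, had 117, 130 and 165 in EE and 68.7, 101 and 112 in SH. Their log2 fold changes were 0.83 (SE 0.26), 0.81 (SE 0.28) and 0.52 (SE 0.15), and 0.71, 0.87 and 0.36 without the pair.

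A further 3 genes higher in EE without overlap were named after their values were seen, since they were well expressed. Apln, the peptide ligand apelin, had 779, 787 and 856 normalized reads in EE and 640, 722 and 777 in SH (log2 fold change 0.17, SE 0.070, and 0.19, SE 0.071, without the pair). Pcca, a subunit of propionyl-CoA carboxylase in the breakdown of branched-chain amino acids, had 370, 383 and 400 in EE and 254, 316 and 354 in SH (0.30, SE 0.091, and 0.27, SE 0.084, and 0.16 with the trend of each library on genomic span removed). Actb, cytoplasmic actin, had 29366, 30085 and 31334 in EE and 24846, 27689 and 28623 in SH (0.16, SE 0.050, and 0.14, SE 0.050). In each of these genes the lowest EE rat exceeded the highest SH rat by little.

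Nearly all oligodendrocyte genes had a positive log2 fold change, 0 of them passed adjustment in limma, and their levels differed widely between rats. Of 25 genes of myelin and mature oligodendrocytes 24 had a positive log2 fold change (median 0.32, 5 at an unadjusted p under 0.05), and without SH 1 and SH 3 again 24 (median 0.31, 7 at an unadjusted p under 0.05). The 19 genes of the lineage and of precursors had 17 positive (median 0.19), and 18 without the pair (median 0.17). Per rat, the median log2 deviation of the myelin list was 0.69, 0.23, 0.15, 0.0096, 0.61 and −0.40 in EE 1 to 6, against 0.18, 0.29, −0.24, −0.26, −0.34 and −0.11 in SH 1 to 6. EE 1 and EE 5 were above all SH rats and EE 6 was below all of them. The summed level of the myelin list was 110513 to 241096 normalized reads in EE and 114291 to 177529 in SH.

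Olig2, the transcription factor that sets oligodendrocyte fate, had 857, 561, 558, 576, 905 and 481 normalized reads in EE 1 to 6, against 482, 518, 336, 433, 404 and 439 in SH 1 to 6. All EE rats but EE 6 exceeded every SH rat, and EE 6 exceeded the SH median (log2 fold change 0.56, SE 0.14, and 0.51, SE 0.15, without the pair). Enpp2, the lysophospholipase autotaxin of maturing oligodendrocytes, had 2323, 1621, 1564, 1317, 1991 and 1087 in EE 1 to 6, against 1202, 1540, 719, 993, 1159 and 1184 in SH 1 to 6. EE 1, 2, 3 and 5 lay above the SH range (0.54, SE 0.17, and 0.41, SE 0.16). Ugt8, which makes the myelin lipid galactosylceramide, had 1315, 1862 and 2632 in EE and 1020, 1325 and 1776 in SH (0.49, SE 0.16, and 0.43, SE 0.17). Bcas1, a marker of myelinating oligodendrocytes, had 2381, 3655 and 5104 in EE and 2256, 2754 and 3696 in SH (0.40, SE 0.15, and 0.41, SE 0.16). In Enpp2, Ugt8 and Bcas1 5 of 6 EE rats were above the SH median. The Src-family kinase Fyn, which acts in myelination and also in neurons, had a narrower spread, 3047, 3362 and 3469 in EE and 2753, 2975 and 3330 in SH (0.16, SE 0.057, and 0.17, SE 0.052). With the trend of each library on genomic span removed, the log2 fold change of Fyn was 0.049.

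The structural proteins of myelin overlapped more. Mbp, myelin basic protein, had 31729, 51724 and 74591 normalized reads in EE and 31622, 38404 and 54620 in SH (log2 fold change 0.37, SE 0.19, and 0.41, SE 0.20, without the pair). Mobp, a further protein of compact myelin, had 2098, 3683 and 5969 in EE and 1505, 2519 and 4038 in SH (0.53, SE 0.22, and 0.32, SE 0.21). The EE range of both genes extended above the SH range, and its lower end lay within it.

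Microglial genes had mostly positive log2 fold changes, with Tmem119 the other way. Of 25 genes of homeostatic microglia 20 were positive (median 0.17), 4 higher and 1 lower at an unadjusted p under 0.05, and without SH 1 and SH 3 there were 22 positive (median 0.21), 1 higher and 1 lower. Leaving out single rats moved the median with all libraries between 0.077 (without EE 5) and 0.27 (without EE 6). Itgam, the integrin subunit CD11b, had 470, 463, 377, 312, 524 and 257 normalized reads in EE 1 to 6, against 410, 387, 185, 213, 189 and 197 in SH 1 to 6. SH 1 and SH 2 lay within the EE range and the other SH rats lay below it (log2 fold change 0.65, SE 0.27, and 0.72, SE 0.27). Tmem119, a membrane protein used to mark microglia, had 293, 267, 263, 252, 361 and 249 in EE 1 to 6, against 444, 389, 460, 467, 281 and 419 in SH 1 to 6. SH 5 alone lay within the EE range (−0.54, SE 0.19, and −0.46, SE 0.20). Cx3cr1, the fractalkine receptor, had 257, 451 and 582 in EE and 157, 345 and 424 in SH (0.48, SE 0.21, and 0.18, SE 0.17). P2ry12, the purinergic receptor of process movement, had 239, 329 and 404 in EE and 169, 267 and 322 in SH (0.33, SE 0.15, and 0.16, SE 0.14). Without the pair the log2 fold changes of Cx3cr1 and P2ry12 were smaller, while that of Itgam was not. The summed level of the microglial list was 10278 to 18012 in EE and 11327 to 15750 in SH, with EE 6 again lowest and EE 5 highest by the list's median. The myelin, lineage and microglial medians were 0.61, 0.50 and 0.56 in EE 5, and −0.40, −0.33 and −0.32 in EE 6. The glutamatergic neuron list stood at −0.24 in EE 5 and 0.20 in EE 6. These lists varied together in those rats and cannot be counted as independent results. The part of cell composition of the punches was not tested.

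Of 32 genes of complement and phagocytosis 24 were positive (median 0.19), and 23 without the pair (median 0.19), with a range of 0.10 (without EE 5) to 0.24 over single rats left out and summed levels of 30290 to 31996 normalized reads in EE and 28387 to 31311 in SH. Elmo1, which couples engulfment receptors to Rac, had 1452, 1678 and 1967 in EE and 692, 1369 and 1683 in SH (log2 fold change 0.47, SE 0.15, and 0.19, SE 0.079, and 0.31 with the span trend removed). Megf10, an engulfment receptor of astrocytes, had 468, 557 and 602 in EE and 344, 453 and 556 in SH (0.27, SE 0.12, and 0.22, SE 0.13, and 0.17 with the span trend removed). All EE rats exceeded the SH median of both genes. The 12 genes of perivascular and infiltrating macrophages, which include Cmklr1, had 7 positive (median 0.14, and 0.03 without the pair). Cd4, borne by macrophages as well as T cells, had 90.6, 127 and 192 in EE and 53.7, 81.1 and 99.8 in SH (0.73, SE 0.23, and 0.59, SE 0.24), with 1 EE rat inside the SH range.

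Lists of inflammatory genes differed. The 23 genes of MHC class II and the interferon response had 11 positive and 12 negative log2 fold changes, and 12 positive and 11 negative without the pair. Irf9, the DNA-binding part of the interferon-activated complex, had 173, 229 and 280 normalized reads in EE and 234, 286 and 400 in SH (−0.38, SE 0.15, and −0.51, SE 0.15). Psmb9, a subunit of the immunoproteasome, had 47.8, 63.2 and 85.3 in EE and 21.1, 43.1 and 60.2 in SH (0.65, SE 0.23, and 0.72, SE 0.24). These interferon-response genes thus lay on opposite sides. Of 30 genes of toll-like receptors and cytokines 19 were positive (median 0.14), and 21 without the pair (median 0.09), among them the receptor Tlr6 with 36.2, 52.2 and 88.0 in EE and 24.8, 35.6 and 53.0 in SH (0.58, SE 0.24, and 0.51, SE 0.27).

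Astrocyte and endothelial lists had small medians, and the mural list was negative without SH 1 and SH 3. The 22 astrocyte markers had 11 positive and 11 negative log2 fold changes, and 12 and 10 without the pair. Gfap, the astrocytic intermediate filament, had 4636, 6084 and 8055 normalized reads in EE and 4649, 5155 and 5790 in SH (0.23, SE 0.16, and 0.26, SE 0.18). The 21 endothelial genes had 16 positive in both fits (median 0.07, and 0.03 without the pair), and Cdh5, the endothelial cadherin, had 195, 224 and 308 in EE and 181, 212 and 228 in SH (0.16, SE 0.11, and 0.21, SE 0.12). The 17 genes of mural cells and fibroblasts had 11 negative (median −0.01), and 12 without the pair (median −0.15), 3 lower and 0 higher at an unadjusted p under 0.05. Tagln, a protein of contractile smooth muscle, had 266, 354 and 560 in EE and 233, 459 and 594 in SH (−0.26, SE 0.21, and −0.44, SE 0.19).

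**Figure D3:**
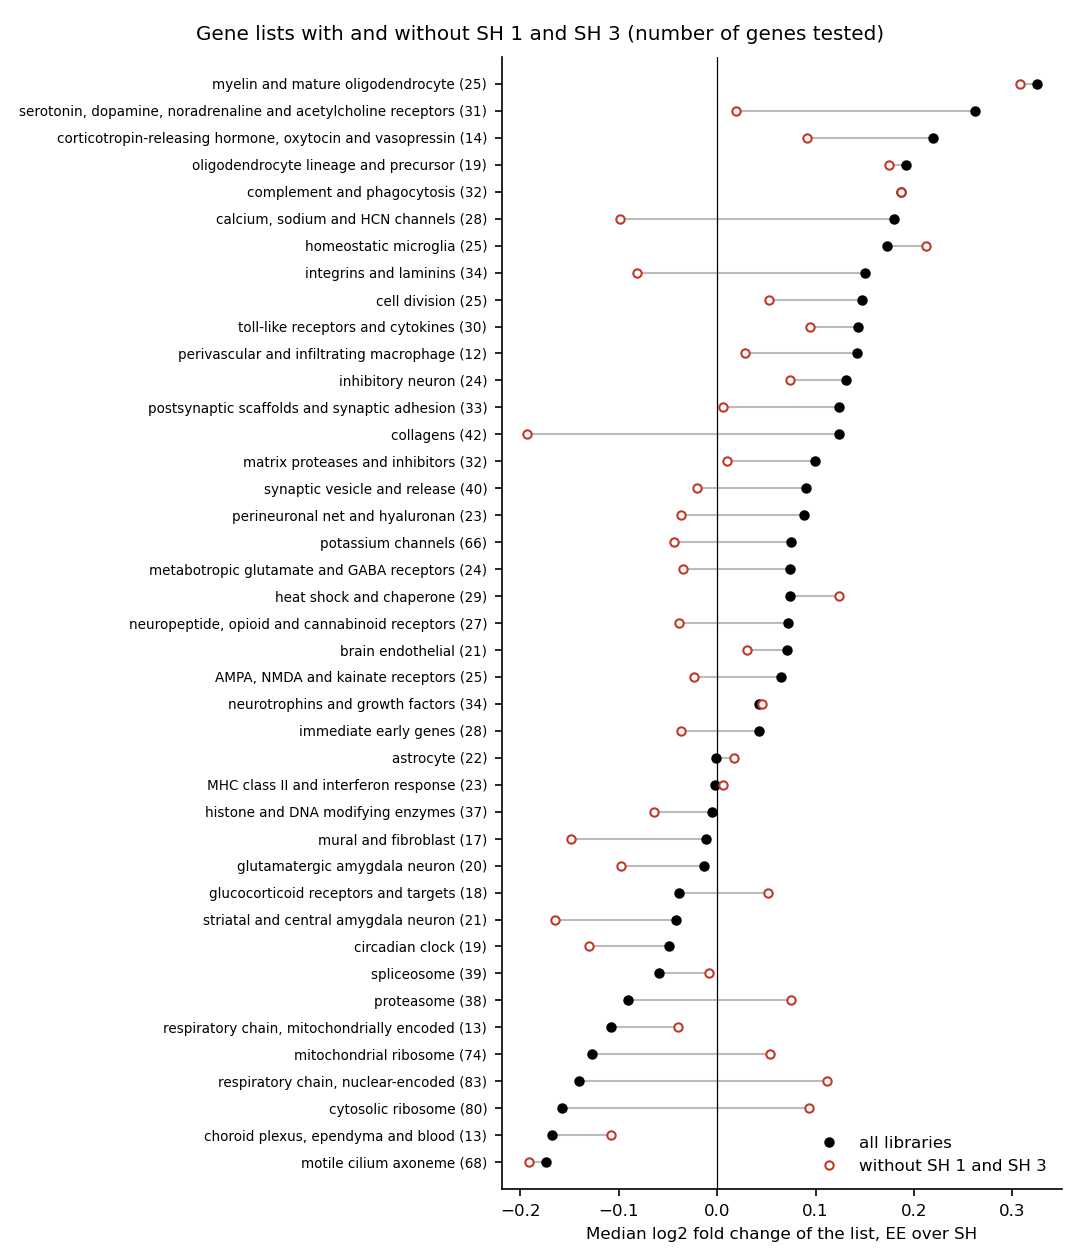
Median log2 fold change of EE over SH (x axis) of each gene list (y axis, with the number of genes tested), with a filled point for all libraries and an open point for the fit without SH 1 and SH 3. The myelin list lies at 0.32 and 0.31, the cytosolic ribosome at −0.16 and 0.09, and 17 of the 41 lists change sign between the points.

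Neuronal markers were mixed. The 20 genes of glutamatergic amygdala neurons had 9 positive and 11 negative log2 fold changes (median −0.01, and −0.10 without SH 1 and SH 3). Of 24 inhibitory neuron genes 17 were positive (median 0.13), and 16 without the pair (median 0.07). Lhx6, a transcription factor of interneurons from the medial ganglionic eminence, had 61.6, 68.3 and 91.0 normalized reads in EE and 10.7, 50.5 and 65.0 in SH (0.82, SE 0.31, and 0.44, SE 0.19). Lamp5, a marker of neurogliaform interneurons, was lower in EE, with 1292, 1487 and 1604 in EE and 1502, 1707 and 2045 in SH (−0.24, SE 0.082, and −0.20, SE 0.080).

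Genes of striatal and central amygdala neurons had 12 negative log2 fold changes of 21 (median −0.04), and 17 of 21 without SH 1 and SH 3 (median −0.16). Chrm4, the muscarinic M4 receptor, had 533, 708, 590, 678, 574 and 887 normalized reads in EE 1 to 6, against 792, 676, 1148, 986, 1004 and 864 in SH 1 to 6. All 6 EE rats were below the SH median, and 3 were below every SH rat (−0.46, SE 0.13, and −0.42, SE 0.14). Adora2a, an adenosine receptor of striatal neurons of the indirect pathway, had 35.3, 69.0 and 103 in EE and 70.9, 114 and 149 in SH (−0.66, SE 0.22, and −0.63, SE 0.23). Tac1, of the same list, went the other way, with 81.0, 232 and 317 in EE and 66.6, 152 and 268 in SH (0.53, SE 0.37, and 0.45, SE 0.36). With all libraries 9 of the 21 genes were positive, and 4 without the pair. The median log2 deviation of the list was −0.35 to 0.17 over the EE rats and −0.31 to 0.50 over the SH rats, and the part of dissection toward neighboring regions in these differences was not tested.

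Immediate early genes had list medians near 0, and clock genes a negative one. Of 28 immediate early genes 16 were positive (median 0.04), and 13 without the pair (median −0.04). Junb, an AP-1 subunit, had 543, 578 and 765 normalized reads in EE and 609, 792 and 939 in SH (−0.33, SE 0.12, and −0.31, SE 0.13). Nr4a2, an orphan nuclear receptor, had 575, 773 and 1356 in EE and 421, 613 and 929 in SH (0.49, SE 0.20, and 0.52, SE 0.19), and Egr1, a zinc finger factor of plasticity, 2055, 2871 and 3715 in EE and 1638, 2405 and 3047 in SH (0.28, SE 0.15, and 0.28, SE 0.16). Arc, a regulator of AMPA receptor endocytosis, had 362, 535 and 638 in EE and 383, 512 and 1037 in SH (−0.23, SE 0.23, and −0.52, SE 0.21). Its EE and SH ranges overlapped widely with all libraries. The 19 clock genes had 12 negative (median −0.05), and 14 without the pair (median −0.13), 3 lower and 0 higher at an unadjusted p under 0.05. Dbp, an output factor of the clock, had 1681, 2087 and 2365 in EE and 2241, 2408 and 3038 in SH (−0.26, SE 0.095, and −0.21, SE 0.092). Its relative Tef had 6143, 6369 and 7072 in EE and 6572, 6947 and 7344 in SH (−0.10, SE 0.051, and −0.08, SE 0.052), and the repressor Nr1d2 had 1714, 1920 and 2057 in EE and 2021, 2054 and 2233 in SH (−0.13, SE 0.059, and −0.13, SE 0.061). In Dbp all EE rats, and in Tef and Nr1d2 5 of 6, were below the SH median. The sample labels give no time of killing for single rats, so its part in the clock genes was not tested.

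Most chaperone genes had a positive log2 fold change, and 0 passed adjustment in limma. Of 29 genes 23 had a positive log2 fold change (median 0.07, 2 at an unadjusted p under 0.05), and without SH 1 and SH 3 28 of 29 (median 0.12, 9 at an unadjusted p under 0.05). The median log2 deviation of the list was −0.0031 to 0.061 over the EE rats and −0.127 to 0.107 over the SH rats, where SH 1 and SH 3 were above every EE rat and the other 4 SH rats were at −0.060 or lower. Hspa5, the main chaperone of the endoplasmic reticulum, had 9540, 9064, 9346, 9016, 10259 and 9339 normalized reads in EE 1 to 6, against 10065, 8424, 9892, 8325, 8213 and 8049 in SH 1 to 6. Every EE rat exceeded every SH rat other than SH 1 and SH 3 (0.10, SE 0.067, and 0.19, SE 0.056). Its partner Hyou1 had 4126, 4456 and 4628 in EE and 3930, 4018 and 4463 in SH (0.11, SE 0.048, and 0.09, SE 0.047). Dnaja1, a cytosolic cochaperone, had 6155, 6622 and 7169 in EE and 5608, 6163 and 6795 in SH (0.12, SE 0.055, and 0.11, SE 0.057).

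**Figure D4:**
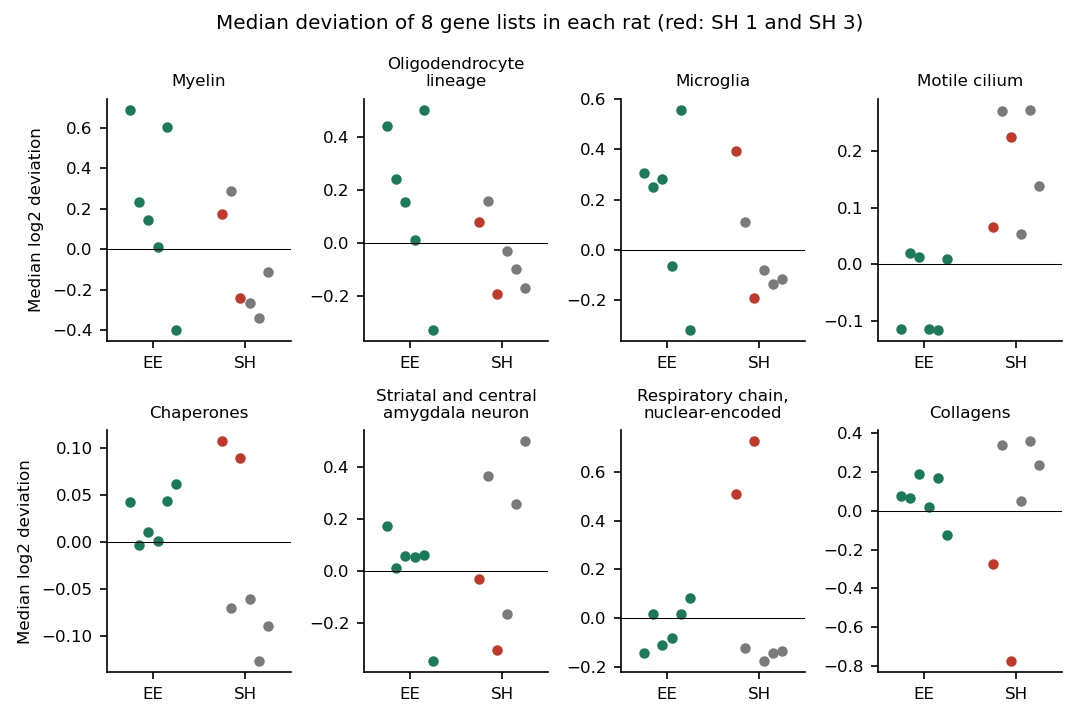
Median log2 deviation from the mean of all libraries (y axis) of 8 gene lists in each rat, EE at the left and SH at the right of each panel, with red points for SH 1 and SH 3. The axonemal list runs from −0.116 to 0.020 in EE and from 0.054 to 0.27 in SH without overlap. Its groups overlap slightly without the 4 genes that prompted it. In the myelin list EE 6 at −0.40 lies below all SH rats.

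Lists of receptors, channels and synapses had positive medians with all libraries, and without SH 1 and SH 3 medians near 0 or, for calcium, sodium and HCN channels, negative. The receptors of serotonin, dopamine, noradrenaline and acetylcholine had 26 of 31 positive (median 0.26), and 16 without the pair (median 0.02). Htr1a, the inhibitory serotonin 1A receptor, had 70.4, 131 and 159 normalized reads in EE and 7.52, 66.9 and 123 in SH (1.21, SE 0.47, and 0.44, SE 0.29). Adra1b, an excitatory noradrenaline receptor, had 87.0, 95.8 and 149 in EE and 51.0, 75.9 and 102 in SH (0.48, SE 0.21, and 0.54, SE 0.22), and Htr4, a serotonin receptor that raises cyclic AMP, 9.06, 17.2 and 42.8 in EE and 2.17, 9.26 and 18.9 in SH (1.11, SE 0.44, and 1.09, SE 0.50). Adra1b and Htr4 thus kept their fold change without the pair, and Htr1a did not. Of 28 calcium, sodium and HCN channels 23 were positive (median 0.18), and 7 without the pair (median −0.10), 3 lower and 0 higher at an unadjusted p under 0.05. The 25 AMPA, NMDA and kainate receptor genes had a median of 0.07, and −0.02 without the pair, the 24 of metabotropic glutamate and GABA receptors 0.07 and −0.03, the 66 potassium channels 0.08 and −0.04, and the 27 receptors of neuropeptides, opioids and cannabinoids 0.07 and −0.04. Gabrb2, a subunit of the GABA-A receptor, had 543, 665 and 780 in EE and 60.2, 588 and 729 in SH, with SH 3 at the lowest value (0.71, SE 0.42, and 0.02, SE 0.13).

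Several synaptic genes had a positive log2 fold change in both fits. Neto2, an auxiliary subunit of kainate receptors, had 562, 657 and 770 normalized reads in EE and 287, 486 and 585 in SH (0.51, SE 0.15, and 0.33, SE 0.12). Cadps2, which primes dense-core vesicles, had 3350, 3516 and 3678 in EE and 2954, 3030 and 3463 in SH (0.17, SE 0.056, and 0.17, SE 0.057), and a log2 fold change of 0.013 once the trend of each library on genomic span was removed. Cbln2, a secreted organizer that binds neurexins, had 466, 511 and 680 in EE and 359, 423 and 486 in SH (0.38, SE 0.13, and 0.38, SE 0.14). All EE rats exceeded the SH median of the 3 genes. Adgrl2, the adhesion receptor latrophilin-2, had 1747, 1902 and 2111 in EE and 1411, 1701 and 1815 in SH (0.23, SE 0.073, and 0.19, SE 0.071, and 0.062 with the span trend removed), and Npy1r, the neuropeptide Y receptor Y1, 301, 478 and 589 in EE and 284, 334 and 421 in SH (0.39, SE 0.15, and 0.47, SE 0.16). Their lists were less stable. Synaptic vesicle and release genes had 32 of 40 positive, and 16 without the pair, and scaffolds and synaptic adhesion 29 of 33, and 17 without the pair.

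In the extracellular matrix, the median of the collagens had the other sign without the pair. Of 42 collagen genes 29 were positive (median 0.12), and without SH 1 and SH 3 28 were negative (median −0.19), 8 lower and 0 higher at an unadjusted p under 0.05. Col15a1, a collagen of vascular basement membranes, was lower in EE in both fits, with 11.3, 16.5 and 26.1 normalized reads in EE and 22.6, 28.7 and 39.0 in SH (−0.82, SE 0.37, and −0.94, SE 0.42). The 34 integrins and laminins had a median of 0.15, and −0.08 without the pair, the 23 genes of perineuronal nets and hyaluronan 0.09 and −0.04, and the 32 matrix proteases and inhibitors 0.10 and 0.01. Itga4, an integrin subunit of leukocytes, had 7.25, 29.4 and 73.6 in EE and 0, 9.66 and 21.7 in SH (2.19, SE 0.74, and 1.91, SE 0.71), with 3 EE rats above all SH rats. Adamts4, a protease of aggrecan and brevican that oligodendrocytes also express, had 347, 596 and 982 in EE and 351, 450 and 657 in SH (0.45, SE 0.21, and 0.32, SE 0.22). Vegfa, a growth factor of vessels, had 2086, 2307 and 2455 in EE and 1380, 1922 and 2516 in SH (0.24, SE 0.10, and 0.10, SE 0.078).

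Lists of protein synthesis, respiration and protein breakdown had medians of opposite sign in the 2 fits. The 80 genes of the cytosolic ribosome had 73 negative log2 fold changes (median −0.16) with all libraries and 62 positive without SH 1 and SH 3 (median 0.09). SH 1 and SH 3 were set apart for their levels of ribosomal and short genes. The change of sign of the ribosomal list therefore follows from that choice and is no separate result. Rpl27, a protein of the large subunit, had 1729, 2043 and 2283 normalized reads in EE and 1962, 2241 and 3473 in SH (−0.29, SE 0.12, and −0.07, SE 0.073), with SH 1 and SH 3 above all other SH rats. The 83 nuclear-encoded genes of the respiratory chain had 75 negative (median −0.14), and 76 positive without the pair (median 0.11), 25 at an unadjusted p under 0.05. Uqcrc2, a core protein of complex III, was positive in both fits, with 4250, 4414 and 4647 in EE and 3724, 4164 and 4289 in SH (0.12, SE 0.051, and 0.11, SE 0.049), whereas Cox4i1, a subunit of complex IV, had 9643, 10588 and 11700 in EE and 9714, 11541 and 17849 in SH (−0.23, SE 0.12, and −0.04, SE 0.080). The 38 proteasome genes had 33 negative (median −0.09), and 35 positive without the pair (median 0.07), and the 74 genes of the mitochondrial ribosome 65 negative (median −0.13), and 58 positive without the pair (median 0.05). Mrps35, of the small mitochondrial subunit, had 680, 720 and 855 in EE and 686, 804 and 1263 in SH (−0.27, SE 0.12, and −0.06, SE 0.075). The 13 genes that mitochondria encode themselves had medians of −0.11 and −0.04, with 9 negative in both fits.

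Without SH 1 and SH 3, DESeq2 called 25 of 10066 genes with an adjusted p. Of these genes, 20 did not overlap between the EE rats and the other 4 SH rats, against 1.65% of all genes tested. The calls were made on these same rats, so this lack of overlap adds no separate evidence. Reck, a membrane-anchored inhibitor of matrix metalloproteases, had 801, 829, 757, 810, 739 and 811 normalized reads in EE 1 to 6, against 700, 1017, 585, 979, 1210 and 1015 in SH 1 to 6. SH 1 and SH 3 lay below every EE rat and the other SH rats above every EE rat, and the log2 fold change was −0.17 (SE 0.13), and −0.41 (SE 0.071) without the pair (DESeq2 adjusted p = 0.785, and 0.000624 without the pair). Cacna1h, the T-type calcium channel Cav3.2, had 1494, 1620, 1753, 1770, 1363 and 1545 in EE 1 to 6, against 1331, 2011, 1277, 2127, 2410 and 2134 in SH 1 to 6. It showed the same arrangement (−0.21, SE 0.13, and −0.45, SE 0.078). Mzf1, a zinc finger transcription factor, had 958, 995 and 1031 in EE and 916, 1205 and 1348 in SH (−0.20, SE 0.089, and −0.35, SE 0.062). In these 3 genes the sign was the same with the pair kept.

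**Figure D5:**
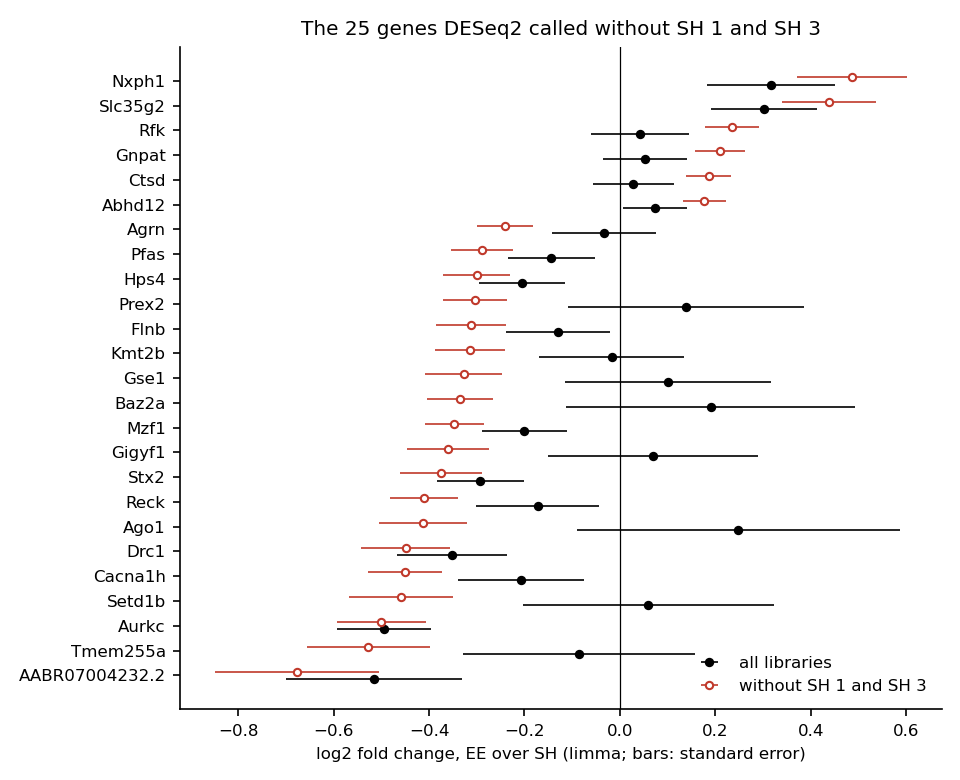
Log2 fold change of EE over SH (x axis, with SE) of the 25 genes (y axis) that DESeq2 called without SH 1 and SH 3, from limma with all libraries (filled points) and without the pair (open points). Aurkc lies at −0.49 and −0.50, and 6 genes, among them Ago1 and Baz2a, lie on opposite sides of 0.

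For 6 of the 25 calls the sign in limma depended on the pair. DESeq2 gave all 6 a negative log2 fold change with all libraries too, from −0.095 to −0.011. Ago1, an Argonaute protein of RNA silencing, had 490, 456, 532, 496, 415 and 532 normalized reads in EE 1 to 6, against 270, 652, 97.8, 643, 609 and 682 in SH 1 to 6. The limma log2 fold change of Ago1 was 0.25 (SE 0.34) with all libraries and −0.41 (SE 0.092) without the pair. Baz2a, the large subunit of a nucleolar chromatin remodeler, had 674, 743 and 849 in EE and 163, 926 and 984 in SH (0.19, SE 0.30, and −0.33, SE 0.070). The 37 histone and DNA modifying enzymes had 19 negative (median −0.01), and 29 without the pair (median −0.06), 7 lower and 1 higher at an unadjusted p under 0.05. Other calls did not depend on the pair for their sign in limma. Stx2, a syntaxin of membrane fusion, had 406, 440 and 494 in EE and 458, 542 and 644 in SH (−0.29, SE 0.091, and −0.37, SE 0.087), and Hps4, a part of the complex that activates Rab GTPases of lysosome-related organelles, 689, 750 and 812 in EE and 646, 901 and 1014 in SH (−0.21, SE 0.089, and −0.30, SE 0.069). Agrn, the proteoglycan agrin of basement membranes, had 3764, 3988 and 4226 in EE and 2926, 4404 and 5087 in SH (−0.03, SE 0.11, and −0.24, SE 0.058).

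Among the 6 calls higher in EE, Slc35g2, of a family of membrane transporters, had 336, 415 and 487 normalized reads in EE and 278, 319 and 412 in SH (0.30, SE 0.11, and 0.44, SE 0.099). Nxph1, neurexophilin-1, a secreted ligand of alpha-neurexins, had 1414, 1876 and 2318 in EE and 1151, 1497 and 2193 in SH (0.32, SE 0.13, and 0.49, SE 0.12, and 0.18 with the span trend removed from all libraries). Ctsd, the lysosomal protease cathepsin D, had 6942, 7329 and 7645 in EE and 6353, 6433 and 9094 in SH (0.03, SE 0.085, and 0.19, SE 0.047). For Ctsd the 4 SH rats other than SH 1 and SH 3 stood between 6353 and 6436, below every EE rat. limma, edgeR and limma-voom called 0 of these genes without the pair, with smallest adjusted p-values over all genes of 0.114, 0.0994 and 0.0661.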

How the data were processed

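The values deposited by the authors are a signal per gene and library, namely reads aligned with HISAT2, counted per gene and normalized by a DESeq2 size factor. Tool versions, genome build, annotation and the counting step are not stated in those sources. Genes whose reads could also map to a close paralog, or overlap an antisense gene, are therefore uncertain. In each library the low values were multiples of 1 step (1.00 in EE 3, near enough to 1 to pass for rounding), and dividing by it made 100.0% of values up to 1000 reads whole to within 0.01. Sequencing depth is the sum of these recovered reads. No sample column was left unused (0).

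On the scale log2(value + 1), limma 3.58.1 in R 4.3.3 fitted a single model of the 3 groups (6 rats each) with a trend of variance on mean level and moderated variances. P-values were adjusted by Benjamini-Hochberg over 18172 genes (threshold 0.05). A fold change on this scale understates the change of low genes. The same fit was made without SH 1 and SH 3. edgeR 4.0.16, DESeq2 1.42.0 and limma-voom were run on the recovered reads. List medians per rat are medians of log2 deviations from the mean of the 18 libraries. Genomic spans came from RefSeq for 14990 of the tested genes (82.5%).

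The comparison, the 41 gene lists and the rules were chosen with earlier results of these data known, and the list of axonemal genes was added after values had been seen, so lists were described by counts and medians without a test. Named genes were the 15 with the smallest p in either limma fit of genes averaging 10 or more, genes called in any fit, the 10 largest fold changes without overlap, the 3 members with the smallest p and the first 2 members of each list, and Cmklr1, Olig2 and Aurkc. Not all of them are printed, and some items are not reported here. Apln, Pcca, Bckdk and Actb were added after their values had been seen. The code was tested on simulated data. Alternatives changed the scaling (TMM, upper quartile), the pseudocount (0.1, 5), the filter, the libraries, the test, library weights, 1 surrogate variable (sva 3.50.0) and the replicate block.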

Additional observations from a re-analysis of the deposited data

Results flagged for a closer look

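Of 262 values examined (gene and list levels and library measures, in each group of 6 rats), 9 had 1 rat far from the other 5, 4 in EE and 5 in SH, and chance alone gives such a gap in about 5% of groups. In EE, ribosomal proteins took 0.976% of normalized reads in EE 5, against 0.757% to 0.833% in the other EE rats. EE 6 stood at −0.35 (median log2 deviation) in the list of striatal and central amygdala neurons, against 0.011 to 0.17 in the others, and at −0.055 in the list of neurotrophins and growth factors, against 0.016 to 0.055. EE 6 also had 522 normalized reads of Fgd3, against 405 to 438. In SH, 4 of the 5 values belonged to SH 3. Its list median was −1.12 for receptors of serotonin, dopamine, noradrenaline and acetylcholine, against −0.22 to 0.14 in the other SH rats, and −0.59 for perineuronal nets and hyaluronan, against −0.071 to 0.19. SH 3 had 532 normalized reads of Rarres2, against 233 to 331, and 3038 of Dbp, against 2241 to 2489. SH 4 had 4463 normalized reads of Hyou1, against 3930 to 4130. None of these values belonged to SH 1, and no cause was tested.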

How the results depend on the processing

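limma called 0 genes at an adjusted p of 0.05 under every alternative run with it, including those that left out each rat in turn (0 to 0) and the replicate block. DESeq2 called 1 gene, and 25 without SH 1 and SH 3, while edgeR and limma-voom called 0. Genes at an unadjusted p under 0.05, 1067 with all libraries, were 666 when EE and SH were fitted alone and 2055 with limma-voom without the pair, and ranged from 744 without EE 1 to 1612 without SH 4. Genes without overlap were 299 without the pair against 31, a count that fewer SH rats also raise. Without the pair 17 of 41 list medians changed sign. The SD between rats, itself widened by SH 1 and SH 3, was exceeded by shifts in the medians of inhibitory neurons (0.054 without SH 3, with a range of 0.054 to 0.17 over single rats left out, and 0.058 with array weights), glucocorticoid receptors and targets (0.052 without the pair, 0.044 with array weights and 0.045 with 1 surrogate variable) and AMPA, NMDA and kainate receptors (−0.024 without the pair). Of 84 genes named above, Tac1 not among them, 80 kept the sign of their log2 fold change under all alternatives run. Some called genes not printed above changed sign as single rats were left out. Prex2 ranged from −0.18 to 0.25, Setd1b from −0.22 to 0.18 and Gigyf1 from −0.18 to 0.20. Gse1 ranged from −0.14 to 0.23, Kmt2b from −0.15 to 0.070 and Tmem255a from −0.34 to 0.047. Rfk ranged from −0.0093 to 0.13.

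Ago1, at 0.25 with all libraries, was negative without the pair (−0.41 in limma, edgeR, DESeq2 and limma-voom), with array weights (−0.30), edgeR (−0.021, and −0.048 without EE 3), DESeq2 (−0.018), limma-voom (−0.32) and 1 surrogate variable (−0.24), and ranged from −0.16 without SH 3 to 0.40 without SH 6. Baz2a was negative without the pair (−0.33 in limma and DESeq2, −0.34 in edgeR and limma-voom), with array weights (−0.27), edgeR (−0.021, and −0.017 without EE 3), DESeq2 (−0.019), limma-voom (−0.28) and 1 surrogate variable (−0.25), and ranged from −0.21 without SH 3 to 0.31 without SH 6. Ctsd ranged from −0.0059 to 0.098 and Agrn from −0.13 to 0.029 over single rats left out. Apart from leaving out libraries, the cause of these shifts was not tested.

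The replicate numbers showed no pairing of the rats, although so few rats cannot exclude a weak one. Same-numbered EE and SH rats correlated at −0.083 to 0.070 in their deviations from the group means, and only EE 4 correlated best with its own number. With the replicate number as a block 1009 genes had an unadjusted p under 0.05, and no call changed. The alternative by protein length could not be run because no protein table was used here, and genomic span took its place. The trend on genomic span removed, edgeR without EE 3 and the list of axonemal genes were added after the data had been seen. Wdr63, Itga4 and other genes under 10 normalized reads in several rats are limited by depth.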
